A study of Mus musculus with 12 samples.

Results

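The 10 genes described here, Phgdh, Psat1, Psph, Shmt1, Shmt2, Mthfd2, Aldh1l2, Asns, Pycr1 and Aldh18a1, code for enzymes that make serine, glycine and folate-bound one-carbon units, asparagine and proline. They were chosen by name, as the rows of the deposited gene table with these symbols, and are 10 of its 24318 genes. The choice was made with earlier results of these data known, so their share of calls is no test of the set. All 10 were among the 12469 genes that passed the filter on low counts and were tested. Under the electrophile diethyl maleate (DEM), 1 of them rose in T-N2G cells, which express Nrf2 tethered to MafG (Asns, by 1.14-fold), where 10.1% of all tested genes rose. In mock cells 4 rose (Psph, Mthfd2, Aldh1l2 and Asns, by 1.31- to 1.44-fold), where 7.76% of all genes did. Leaving out 1 library brought these counts down to 0 in T-N2G cells (in 11 of 12 cases) and to 3 in mock cells (in 8 of 12, by loss of Aldh1l2). With libraries paired by replicate number, 3 rose and 2 fell in T-N2G cells (22.8% and 22.2% of all genes). In mock cells, 5 then rose and 0 fell (20.9% and 21.9%). The difference between the responses of both kinds of cell was called in edgeR for 0 of the 10, with or without this pairing. Without it, 0.417% of all genes were called higher and 0.0160% lower in that difference. None was called between T-N2G and mock cells unless libraries were so paired.

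The 12 RNA-seq libraries, made from polyadenylated RNA, come from immortalized mouse embryonic fibroblasts (MEFs) and form 4 groups of 3. All of these cells, the controls too, have the genotype MafF-/-::MafG-/-::MafK-/- and so lack the small Maf proteins, the partners with which the stress factor Nrf2 binds DNA. T-N2G cells also expressed T-N2G, a heterodimer of Nrf2 and MafG joined by a tether (T-NG2 in the genotype label), and mock cells did not. Both received, for 12 h, vehicle or DEM at 100 µM, an agent that depletes glutathione, which gave the groups T-N2G DEM, T-N2G vehicle, mock DEM and mock vehicle. The labels do not say how T-N2G was introduced, whether the cells are a pool or a clone, or whether replicates were separate cultures, so p-values measure only the spread between these libraries, which may be technical.

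Library totals were 18863560 to 23095692 fragments. T-N2G cells exceeded mock cells in Nfe2l2, the gene of Nrf2, by 8.90-fold under DEM and 11.3-fold in vehicle, and in Mafg by 138-fold and 264-fold (adjusted p at most 3.15e-07). Over fits with other settings the log2 fold change of Mafg ran from 5.71 to 7.24 under DEM and from 6.12 to 8.2 in vehicle. Its folds are thus not precise. Fragments of the construct and of the cells' own genes cannot be separated. The Y-linked Ddx3y also differed, by 1.79-fold under DEM (adjusted p = 6.12e-04; 9.60 to 10.7 CPM in T-N2G cells, 5.35 to 6.10 in mock cells) and 1.62-fold in vehicle (adjusted p = 0.0154; 9.43 to 11.5 and 6.13 to 6.85 CPM). Of other Y-linked genes, Eif2s3y and Uty were also higher under DEM (adjusted p = 0.0301 and 0.0358), and Kdm5d was not called (0.227). In vehicle Eif2s3y, Kdm5d and Uty were not called (adjusted p = 0.169, 0.584 and 0.627). Other differences between the populations and T-N2G thus cannot be told apart. All 10 fibroblast markers were detected, at a summed level of 3750 to 4350 FPKM in T-N2G DEM, 4480 to 5170 in T-N2G vehicle, 4380 to 4930 in mock DEM and 4660 to 5150 in mock vehicle, so the T-N2G DEM libraries lay lowest, and the part of this in the results below was not tested. The defining genes of other cell types were near 0, with Epcam at no more than 0.0747, Pecam1 at no more than 0.0947 and Ptprc at no more than 0.0196 FPKM, and with Adgre1, Cd3e and Rbfox3 at 0. Summed over each list, epithelial markers had 3.05 to 17.6 FPKM, nearly all of it Krt14, neural markers 5.67 to 13.5, nearly all of it Map2, endothelial markers 0.976 to 3.04, blood markers 1.28 to 2.44 and skeletal muscle markers 0.034 to 0.267.

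Within a gene, levels are given as CPM, fragments scaled to 1 common effective library size. Between genes they are given as FPKM, the authors' value per transcript length and library size. Log2 fold changes carry their standard error (SE) and compare n = 3 libraries with n = 3. A call is a Benjamini-Hochberg adjusted p under 0.05 over all 12469 genes, from the quasi-likelihood test of edgeR. The same test with a term for the replicate number is called the block. It is named where it changes a call, since libraries of the same number deviated together. Aldh1l2, Psph, Shmt1 and Shmt2 overlap genes on the opposite strand, and whether counting used the strand is not given in the sources used here, so their levels may hold reads of those genes. Aldh18a1 and Mthfd2 overlap other annotated features on their own strand, with the same limit.

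Serine is built from a glycolytic intermediate by Phgdh, Psat1 and Psph in turn. The Shmt enzymes then split it into glycine and a one-carbon unit on folate, Shmt1 in the cytosol and Shmt2 in mitochondria, where Mthfd2 and Aldh1l2 oxidise that unit further and yield NADH or NADPH. Asns makes asparagine from aspartate and glutamine, and Aldh18a1 and Pycr1 make proline from glutamate at the cost of NADPH. Many of these genes are known targets of Atf4, the transcription factor of the integrated stress response, which cells switch on when amino acids run short or proteins misfold. In cancer cells, Nrf2 has been reported to raise serine synthesis genes through Atf4.

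The windows at the start sites of 4 of these genes are shown because these genes are 4 of the 5 with the largest log2 fold changes under DEM in mock cells, and 3 of them hold a motif of a factor named above. Each runs 5′ to 3′ on the gene's strand, from 250 bases before the RefSeq start to 50 after it (RefSeq, GRCm38.p6). Capitals mark matches to TGATGNAA, the composite element of Atf4 with C/EBP proteins, or to TGACNNNGC, the core of the antioxidant response element of Nrf2. Both were searched on both strands.
Asns, chr6:7693160-7693459, minus strand: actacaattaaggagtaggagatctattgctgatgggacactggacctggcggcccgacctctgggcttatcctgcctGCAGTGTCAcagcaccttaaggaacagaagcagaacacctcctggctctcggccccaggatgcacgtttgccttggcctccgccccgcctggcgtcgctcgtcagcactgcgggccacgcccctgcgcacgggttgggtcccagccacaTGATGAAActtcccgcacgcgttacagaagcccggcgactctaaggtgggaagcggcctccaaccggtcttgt
Pycr1, chr11:120643699-120643998, minus strand: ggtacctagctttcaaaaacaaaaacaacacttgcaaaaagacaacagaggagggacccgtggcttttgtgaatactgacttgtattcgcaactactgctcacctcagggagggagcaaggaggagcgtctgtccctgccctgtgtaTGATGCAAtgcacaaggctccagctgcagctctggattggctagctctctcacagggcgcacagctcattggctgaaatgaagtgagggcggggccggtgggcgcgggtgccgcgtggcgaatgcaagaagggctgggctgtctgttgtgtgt
Psph, chr5:129787204-129787503, minus strand: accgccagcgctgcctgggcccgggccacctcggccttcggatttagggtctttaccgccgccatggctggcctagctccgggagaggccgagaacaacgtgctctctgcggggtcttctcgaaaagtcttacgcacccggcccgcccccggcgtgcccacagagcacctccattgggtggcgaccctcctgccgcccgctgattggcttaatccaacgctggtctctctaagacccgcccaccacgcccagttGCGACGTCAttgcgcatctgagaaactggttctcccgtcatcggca
Mthfd2, chr6:83317555-83317854, minus strand: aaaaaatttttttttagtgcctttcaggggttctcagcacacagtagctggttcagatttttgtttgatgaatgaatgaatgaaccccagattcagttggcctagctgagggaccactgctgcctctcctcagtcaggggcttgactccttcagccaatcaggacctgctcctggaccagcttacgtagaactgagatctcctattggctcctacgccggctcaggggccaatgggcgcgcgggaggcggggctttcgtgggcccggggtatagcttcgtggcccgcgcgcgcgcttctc

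Of the 10 genes, 9 matched the promoter table by symbol (not Aldh1l2), with 10 windows in all, since Psat1 has 2. TGATGNAA was found in 2 of these 10 windows, against 3.97% of all 32851 windows. In the Asns window it lay 23 to 16 bases before the start and in that of Pycr1 103 to 96 bases before it. TGACNNNGC was found in 3 of the 10, those of Phgdh (53 to 45 bases before the start), Asns (172 to 164 before) and Psph (5 to 13 after), each on the strand opposite to the gene, against 12.4% of all windows. In no window did the 2 motifs overlap. These are matches of letters and not measured binding.

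Per length, the serine enzymes Psat1 and Phgdh stood highest and the last enzyme of proline synthesis lowest. Over the 12 libraries Psat1, the phosphoserine aminotransferase, ranged between 204 and 272 FPKM (median 241), and Phgdh, the dehydrogenase that commits carbon to serine, between 146 and 208 (median 185). Asns followed at 89.1 to 129 FPKM (median 104). Below it came the mitochondrial Shmt2 (56.4 to 79.9, median 68.5), Aldh18a1 (50.4 to 65.9, median 58.7) and Mthfd2 (44.0 to 63.0, median 50.9). The cytosolic Shmt1 had 27.8 to 37.4 FPKM (median 32.6), and Psph, the phosphatase that ends serine synthesis, 17.5 to 32.7 (median 22.3). Aldh1l2 had 10.7 to 17.8 FPKM (median 14.4) and Pycr1 4.96 to 10.4 (median 8.18). Each gene lay above the next in this order in 12 of 12 libraries, except Aldh18a1 and Mthfd2, where Aldh18a1 was the higher in 9 of 12. The ranges of neighbours in the order did not overlap for Phgdh and Asns, Asns and Shmt2, Mthfd2 and Shmt1, and Aldh1l2 and Pycr1. The other neighbours had overlapping ranges.

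**Figure D1:**
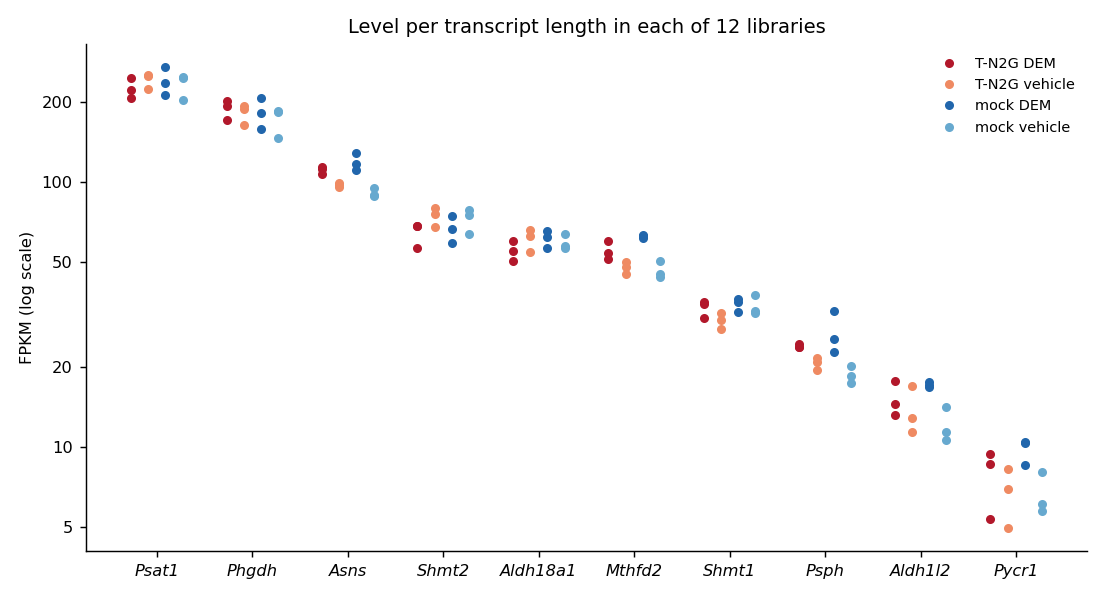
FPKM (log scale) of the 10 genes in each of the 12 libraries, genes ordered by their median and points coloured by group. Psat1 and Phgdh stand at 146 FPKM or more in every library, and Pycr1 at no more than 10.4.

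The first question was how these genes respond to DEM in either kind of cell. In T-N2G cells 1 of the 10 rose and 0 fell, against 10.1% of all tested genes called higher and 7.55% called lower. In mock cells 4 rose and 0 fell, against 7.76% and 6.18% of all genes. With the block, 3 rose and 2 fell in T-N2G cells (22.8% and 22.2% of all genes), and 5 rose and 0 fell in mock cells (20.9% and 21.9%). Over the 10, log2 fold changes had a median of 0.15 in T-N2G cells (7 of 10 positive) and 0.24 in mock cells (9 of 10), where the medians of all genes were -0.00 and -0.01. The members called in mock cells were the last enzyme of serine synthesis, the mitochondrial folate enzymes Mthfd2 and Aldh1l2, and Asns, and with the block Pycr1. In T-N2G cells 3 members had all DEM libraries above all vehicle libraries, against 18.2% of all genes, and in mock cells 5, against 17.2%.

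**Figure D2:**
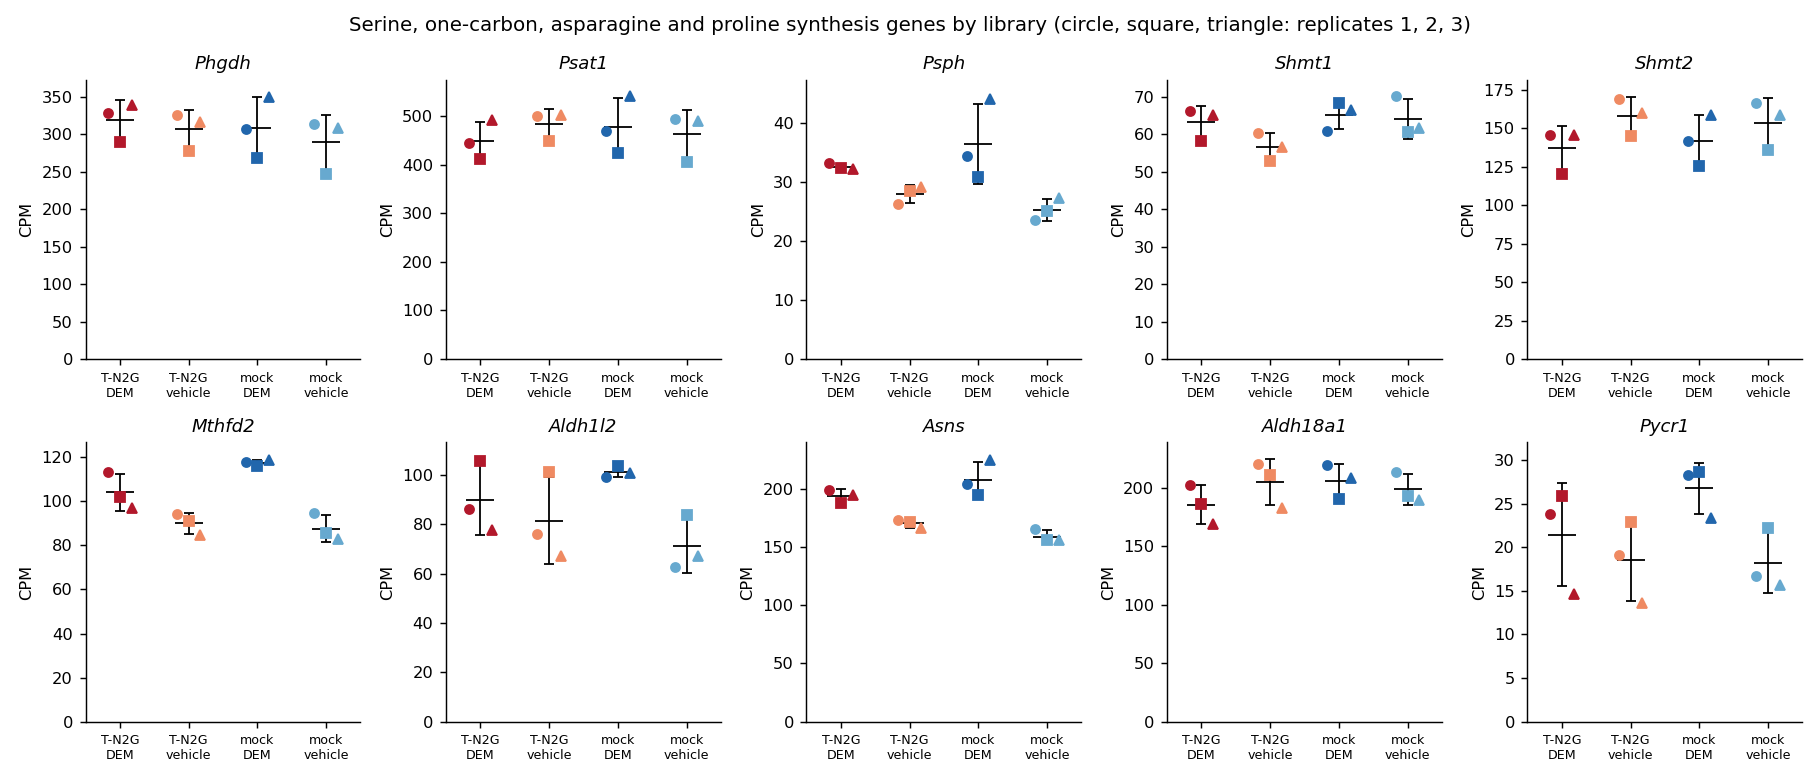
CPM of each gene by library in the 4 groups, with the mean and SD (bars) over 3 libraries. Psph, Mthfd2, Aldh1l2, Asns and Pycr1 have all mock DEM libraries above all mock vehicle libraries, while Phgdh, Psat1, Shmt1, Shmt2 and Aldh18a1 do not.

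Of the serine branch, only Psph passed the test. It had 33.1, 32.3 and 32.2 CPM in T-N2G DEM, against 26.2, 28.5 and 29.2 in T-N2G vehicle. In mock cells it had 34.3, 30.8 and 44.0 CPM under DEM, against 23.5, 25.0 and 27.3 in vehicle. The DEM libraries lay above the vehicle libraries without overlap in both kinds of cell, and mock DEM replicate 3 stood above the other 11. In T-N2G cells the change was log2 0.22 ± 0.11 SE (adjusted p = 0.209), which the block called higher (adjusted p = 0.0371). That call of the block was lost without each of 5 libraries in turn, T-N2G DEM replicates 1 and 2, T-N2G vehicle replicates 1 and 3 and mock DEM replicate 1 (adjusted p up to 0.19). In mock cells Psph rose 1.44-fold (log2 0.53 ± 0.11, adjusted p = 0.0118).

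Phgdh and Psat1, the enzymes before Psph, had overlapping DEM and vehicle libraries. Phgdh had 328, 290 and 340 CPM in T-N2G DEM, against 326, 278 and 317 in T-N2G vehicle, and 307, 268 and 350 in mock DEM, against 313, 247 and 308 in mock vehicle. Replicate 2 was the lowest library in each of the 4 groups. The log2 fold change of Phgdh was 0.06 (95% interval -0.19 to 0.31) in T-N2G cells and 0.09 (-0.16 to 0.34) in mock cells. Psat1 had 445, 413 and 491 CPM in T-N2G DEM, against 501, 449 and 502 in T-N2G vehicle, and 469, 425 and 541 in mock DEM, against 495, 406 and 490 in mock vehicle. Here too replicate 2 was lowest in each group, and the groups overlapped, but each T-N2G DEM library lay below the vehicle library of its number. The log2 fold change of Psat1 in T-N2G cells was -0.11 ± 0.10 (interval -0.34 to 0.12, adjusted p = 0.522), with an adjusted p of 0.0623 with the block, which called it lower in 5 of 12 fits that left out 1 library (adjusted p 0.0225 to 0.222). In mock cells the interval was -0.18 to 0.27. Without the block a change of more than 1.27-fold upward lies outside the intervals of both Phgdh and Psat1.

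Of the 4 folate enzymes, Mthfd2 and Aldh1l2 were called in mock cells and the Shmt pair was not. Mthfd2, the mitochondrial methylene-folate dehydrogenase, had 113, 102 and 96.9 CPM in T-N2G DEM, against 94.2, 91.2 and 84.7 in T-N2G vehicle. In mock DEM it had 118, 116 and 119 CPM, against 94.6, 85.5 and 82.9 in mock vehicle. No DEM library overlapped the vehicle libraries of the same cells. The change in T-N2G cells was log2 0.21 ± 0.07 with an adjusted p of 0.0667. The block called it higher (adjusted p = 0.00162), and did so without any 1 of the 12 libraries. Mthfd2 rose 1.34-fold in mock cells (log2 0.42 ± 0.07, adjusted p = 0.00409).

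Aldh1l2, the mitochondrial formyl-folate dehydrogenase, had 86.2, 106 and 77.6 CPM in T-N2G DEM, against 76.0, 101 and 67.2 in T-N2G vehicle. In mock DEM it had 99.2, 104 and 101 CPM, against 62.8, 83.7 and 67.4 in mock vehicle. The mock groups did not overlap, and the T-N2G groups did, with replicate 2 highest in all 4 groups. In T-N2G cells the log2 fold change was 0.14 (interval -0.20 to 0.48, adjusted p = 0.568). Aldh1l2 rose 1.42-fold in mock cells (log2 0.51 ± 0.15, adjusted p = 0.0489). That call was lost without each of 8 libraries in turn (T-N2G DEM replicates 1 and 3, T-N2G vehicle replicate 1, mock DEM replicates 1, 2 and 3, mock vehicle replicates 1 and 3; adjusted p up to 0.141) and with library totals without TMM (0.0725), whereas the block kept it without any 1 of the 12.

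The Shmt pair supplies the one-carbon units, and neither gene was called under DEM without the block. Shmt2 had 145, 120 and 145 CPM in T-N2G DEM, against 169, 145 and 160 in T-N2G vehicle, and 142, 126 and 159 in mock DEM, against 166, 136 and 159 in mock vehicle. Each DEM library of T-N2G cells lay below the vehicle library of its number, and the groups met at 145 CPM. The log2 fold change was -0.21 ± 0.11 in T-N2G cells (adjusted p = 0.213), and the block called it lower (adjusted p = 0.00137), also without any 1 of the 12 libraries. In mock cells it was -0.11 ± 0.11 (adjusted p = 0.517). Shmt1 had 66.3, 58.1 and 65.1 CPM in T-N2G DEM, against 60.3, 52.8 and 56.5 in T-N2G vehicle, and 60.9, 68.4 and 66.4 in mock DEM, against 70.1, 60.6 and 61.5 in mock vehicle. The groups overlapped in both kinds of cell, at log2 fold changes of 0.16 ± 0.08 in T-N2G cells (adjusted p = 0.204) and 0.03 ± 0.08 in mock cells (adjusted p = 0.866).

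Asns was the member called in both kinds of cell. It had 199, 188 and 195 CPM in T-N2G DEM, against 173, 171 and 166 in T-N2G vehicle, and 204, 195 and 225 in mock DEM, against 165, 156 and 156 in mock vehicle. All 6 DEM libraries lay above all 6 vehicle libraries. Asns rose 1.14-fold in T-N2G cells (log2 0.19 ± 0.06, adjusted p = 0.0483) and 1.31-fold in mock cells (log2 0.39 ± 0.06, adjusted p = 0.00233). In T-N2G cells the call stood close to the threshold. Leaving out 1 library at a time ended it in 11 of 12 cases, all but mock DEM replicate 3 (adjusted p 0.0381 to 0.15), as did DESeq2 size factors (0.0552), limma (0.0504 and 0.0518) and no filter (0.104), and it was kept in all 12 with the block.

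Neither proline gene was called without the block. Pycr1, the reductase that completes proline, had 23.8, 25.9 and 14.7 CPM in T-N2G DEM, against 19.1, 22.9 and 13.6 in T-N2G vehicle. In mock DEM it had 28.3, 28.6 and 23.4 CPM, against 16.7, 22.2 and 15.7 in mock vehicle. Replicate 3 was lowest in each group, with a mean deviation from the group means of -0.325 (log2), and the mock groups did not overlap. In T-N2G cells the change was log2 0.21 ± 0.22 (adjusted p = 0.549). Pycr1 had the largest log2 fold change of the 10 in mock cells, 0.56 ± 0.22, but an adjusted p of 0.118. The block called it higher (adjusted p = 1.72e-04), without any 1 of the 12 libraries too.

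Aldh18a1, the synthase of the first steps from glutamate, had 202, 186 and 169 CPM in T-N2G DEM, against 221, 211 and 183 in T-N2G vehicle, and 219, 190 and 209 in mock DEM, against 214, 193 and 189 in mock vehicle. Each T-N2G DEM library lay below the vehicle library of its number, and the groups overlapped. The log2 fold change in T-N2G cells was -0.14 ± 0.09 (adjusted p = 0.302). The block called it lower (adjusted p = 0.0299), but not without T-N2G DEM replicate 3 or without T-N2G vehicle replicate 1 or 2 (adjusted p up to 0.188). In mock cells it was 0.05 ± 0.09 (adjusted p = 0.736).

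The library codes of replicates 1 and 2 run together in the labels and those of replicate 3 apart. In replicates 1 and 2 alone the log2 fold change of Asns under DEM was 0.17 in T-N2G cells, and in mock cells those of Psph, Mthfd2, Aldh1l2 and Asns were 0.42, 0.38, 0.47 and 0.32. These kept their direction but not their calls (adjusted p of 0.202 in T-N2G cells, and 0.0704, 0.0698, 0.215 and 0.065 in mock cells), while the block called all 5 in these 8 libraries (adjusted p 1.12e-04 to 0.00993). Replicate 3 alone, with 1 library a group, allows no test.

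**Figure D3:**
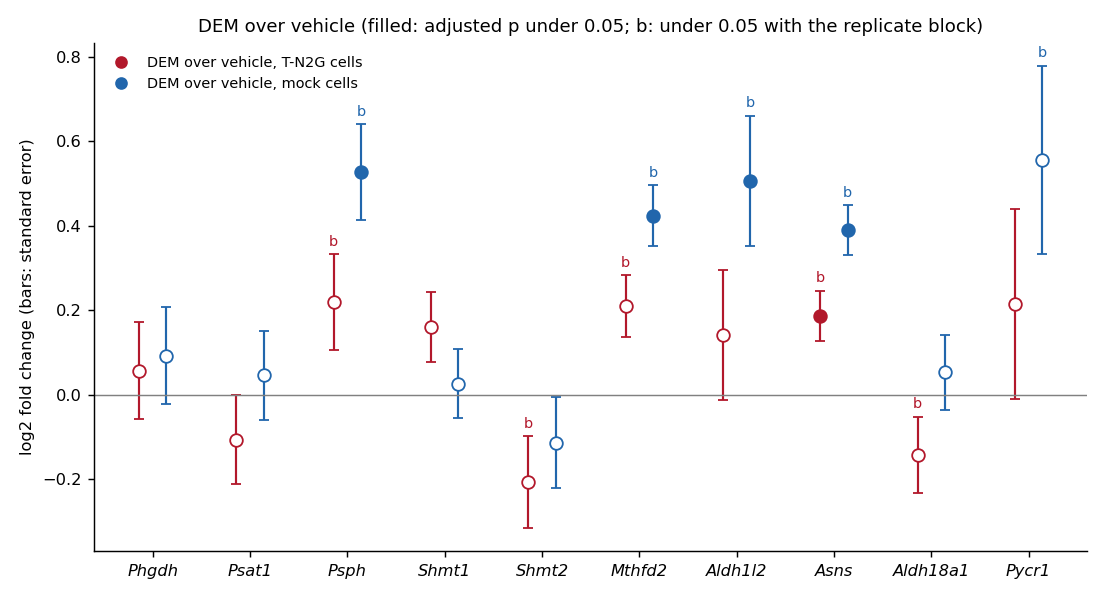
Log2 fold change of DEM over vehicle with its SE (bars) for the 10 genes, in T-N2G cells (red) and in mock cells (blue). Filled points passed an adjusted p of 0.05, and b marks those that passed it with the block. The lowest point is Shmt2 in T-N2G cells (-0.21), and the highest are Pycr1, Psph and Aldh1l2 in mock cells (0.56, 0.53 and 0.51).

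Whether the DEM response differs with T-N2G was tested as the difference of both effects, T-N2G minus mock. In edgeR none of the 10 was called, with or without the block. Without it 0.417% of all genes were called higher and 0.0160% lower (with it 1.82% and 0.978%), and 1 member and 455 of all genes had an unadjusted p under 0.05. The differences were negative for 9 of the 10 genes and positive for Shmt1 (0.13 ± 0.12), and their median was -0.20, against 0.00 over all genes. For Aldh1l2 the difference was -0.36 ± 0.22 (interval -0.84 to 0.11), for Pycr1 -0.34 ± 0.32 (-1.03 to 0.35) and for Psph -0.31 ± 0.16 (-0.66 to 0.04). Mthfd2 had -0.21 ± 0.10 (-0.44 to 0.01). Asns, the member with the unadjusted p under 0.05, had -0.20 ± 0.08, with an interval of -0.38 to -0.02 and an adjusted p of 1. DESeq2 with the block called Aldh1l2 lower (adjusted p = 0.0338). By their values the DEM responses of 9 genes were thus more positive in mock cells, and in edgeR no member's difference passed the test.

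The second question was what T-N2G itself changes. Under DEM, 0 of the 10 were called in T-N2G over mock cells, where 2.61% of all genes were called higher and 1.11% lower. Mthfd2 alone of them and 1861 of all genes had an unadjusted p under 0.05. In vehicle 0 were called, against 0.305% of all genes higher and 0.00802% lower, and Shmt1 and 800 of all genes had an unadjusted p under 0.05. DESeq2 without the block called 0 members in either comparison. The block called 3 lower under DEM, Mthfd2, Pycr1 and Aldh18a1, where it called 10.3% of all genes higher and 9.32% lower, and 0 in vehicle, against 3.06% and 3.24%. The comparisons with DEM and the DEM responses above share their DEM libraries, so they are not separate evidence.

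Under DEM, the values of Mthfd2 above did not overlap, at 96.9 to 113 CPM in T-N2G cells and 116 to 119 in mock cells. The change was log2 -0.17 ± 0.07 (adjusted p = 0.267, or 0.0107 with the block). Groups that do not overlap in this direction made up 9.35% of all genes. For Pycr1 it was -0.32 ± 0.22 (adjusted p = 0.598, or 0.0168 with the block), and each T-N2G library lay below the mock library of its number. Aldh18a1 had -0.15 ± 0.09 (adjusted p = 0.498, or 0.0399 with the block). These calls of the block were lost without T-N2G DEM or mock DEM replicate 3 for Mthfd2 (adjusted p up to 0.0846), without those or mock DEM replicate 1 for Pycr1 (up to 0.111), and without each of 6 libraries for Aldh18a1 (T-N2G DEM replicates 1, 2 and 3, T-N2G vehicle replicate 1, mock DEM replicates 1 and 3; up to 0.263). The other 7 genes lay between -0.17 (Aldh1l2) and 0.05 (Phgdh).

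In vehicle, the largest changes were those of Aldh1l2 (log2 0.19 ± 0.15, adjusted p = 0.971) and Shmt1 (-0.18 ± 0.08, adjusted p = 0.776). The Shmt1 libraries of T-N2G cells, 52.8 to 60.3 CPM, lay below the 60.6 to 70.1 of mock cells, as they did for 5.09% of all genes. Asns lay above without overlap (166 to 173 CPM in T-N2G cells, 156 to 165 in mock cells; 5.11% of all genes), at log2 0.10 ± 0.06 (adjusted p = 0.896). For the serine enzymes Phgdh, Psat1 and Psph the intervals of the fold were 0.891 to 1.26, 0.891 to 1.22 and 0.931 to 1.31.

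**Figure D4:**
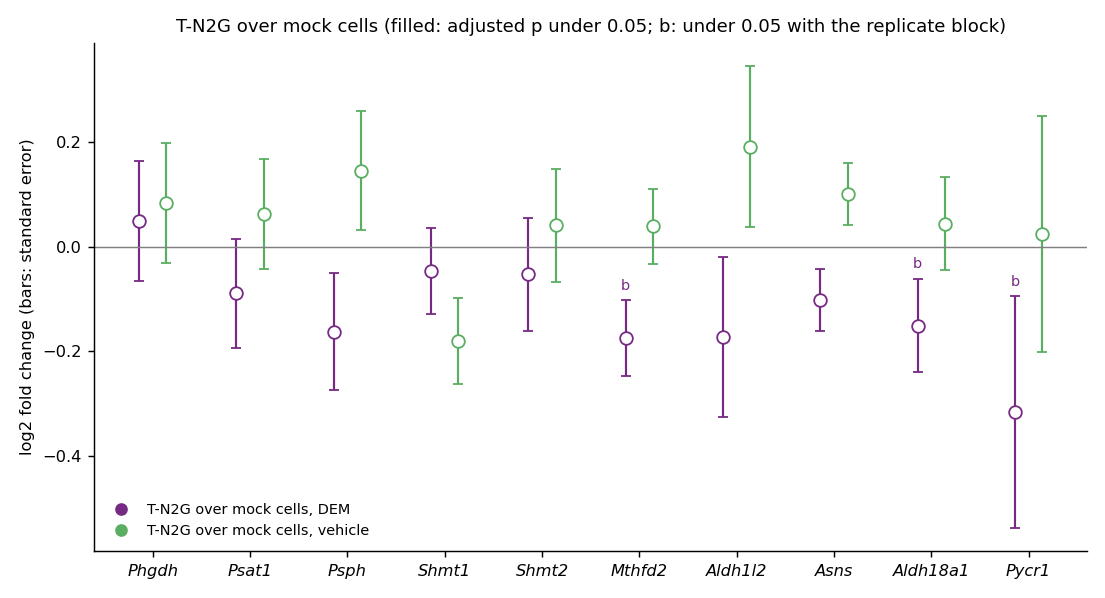
T-N2G over mock cells as log2 fold change with SE (bars) for the 10 genes, under DEM (purple) and in vehicle (green). No point is filled, since none passed an adjusted p of 0.05, and b marks Mthfd2, Aldh18a1 and Pycr1 under DEM, which passed it with the block.

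Genes next to these in the pathways were taken from 3 lists. Of 44 genes of serine, glycine and folate metabolism 37 were tested. Under DEM 3 rose and 1 fell in T-N2G cells (8.11% and 2.70% of the 37, against 10.1% and 7.55% of all genes), and 4 rose and 1 fell in mock cells (10.8% and 2.70%, against 7.76% and 6.18%). With the block 5 rose and 10 fell in T-N2G cells (13.5% and 27.0%, against 22.8% and 22.2% of all genes), and 6 rose and 12 fell in mock cells (16.2% and 32.4%, against 20.9% and 21.9%). In T-N2G over mock cells 1 was higher under DEM (2.70%, against 2.61% of all genes) and 0 in vehicle. With the block 5 were higher and 3 lower under DEM (13.5% and 8.11%, against 10.3% and 9.32% of all genes). The list median was -0.06 in either kind of cell, beside 0.15 and 0.24 for the 10 members. Mthfd1, the cytosolic enzyme with the same one-carbon steps as its mitochondrial counterparts, fell. It had 134, 105 and 122 CPM in T-N2G DEM, against 168, 139 and 151 in T-N2G vehicle, and 125, 109 and 116 in mock DEM, against 172, 144 and 151 in mock vehicle. The fold was 0.787 in T-N2G cells (log2 -0.35 ± 0.10, adjusted p = 0.0374) and 0.748 in mock cells (log2 -0.42 ± 0.10, adjusted p = 0.0214). The T-N2G call was lost without each of 5 libraries (T-N2G DEM replicates 2 and 3, T-N2G vehicle replicates 1 and 3, mock DEM replicate 3; adjusted p up to 0.14) and the mock call without mock DEM replicate 2 or 3 or mock vehicle replicate 1 (up to 0.0878).

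In T-N2G cells the ratio of Mthfd2 to Mthfd1, in FPKM, was thus 1.46 ± 0.15 (SD, n = 3) under DEM, against 0.991 ± 0.0916 in vehicle. In mock cells it was 1.69 ± 0.109 under DEM, against 0.943 ± 0.0411 in vehicle. The mean ratio of Shmt2 to Shmt1 ran the other way, at 1.92 ± 0.0763 in T-N2G cells under DEM, against 2.48 ± 0.0398 in their vehicle libraries. For mock cells the values were 1.94 ± 0.269 under DEM, against 2.12 ± 0.151 in vehicle. Both ratios were chosen after the values were seen and carry no test.

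Slc1a4, a transporter of serine, alanine and other small neutral amino acids, was the listed gene whose DEM response differed between the cells in edgeR without the block. It had 153, 156 and 166 CPM in T-N2G DEM, against 66.8, 74.7 and 67.1 in T-N2G vehicle, and 79.4, 85.5 and 94.2 in mock DEM, against 59.0, 68.6 and 65.7 in mock vehicle. The T-N2G DEM libraries stood far above the other 9. Slc1a4 rose 2.28-fold in T-N2G cells (log2 1.19 ± 0.08, adjusted p = 1.06e-05) and 1.34-fold in mock cells (log2 0.42 ± 0.08, adjusted p = 0.0066), a difference of 0.77 ± 0.11 (adjusted p = 0.011). Under DEM its level in T-N2G cells was 1.84-fold that in mock cells (adjusted p = 3.44e-05), with log2 0.11 ± 0.08 in vehicle (adjusted p = 0.962). The serine enzymes Phgdh, Psat1 and Psph had log2 fold changes of 0.05, -0.09 and -0.16 in T-N2G over mock cells under DEM, none of them called.

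Around asparagine and proline, 26 of 30 listed genes were tested. Under DEM 3 rose and 4 fell in T-N2G cells (11.5% and 15.4% of the 26, against 10.1% and 7.55% of all genes), and 5 rose and 3 fell in mock cells (19.2% and 11.5%, against 7.76% and 6.18%). With the block these were 6 and 10 in T-N2G cells (23.1% and 38.5%, against 22.8% and 22.2%), and 6 and 7 in mock cells (23.1% and 26.9%, against 20.9% and 21.9%). In T-N2G over mock cells 1 was lower under DEM (3.85%, against 1.11% of all genes), and 0 were called in vehicle. With the block 4 were higher and 3 lower under DEM (15.4% and 11.5%, against 10.3% and 9.32%). In vehicle the block called 1 higher (3.85%, against 3.06%). P4ha1, a subunit of the enzyme that hydroxylates proline in collagen, rose 1.16-fold in T-N2G cells (adjusted p = 0.00951) and 1.25-fold in mock cells (adjusted p = 0.00206). Glul, which turns glutamate into glutamine, fell to a fold of 0.738 in T-N2G cells (adjusted p = 0.0218) and 0.658 in mock cells (adjusted p = 0.00678). Its T-N2G call was lost without T-N2G DEM replicate 3 or T-N2G vehicle replicate 1 (adjusted p up to 0.078). Slc25a13, a mitochondrial aspartate and glutamate carrier, fell to 0.721 in T-N2G cells (adjusted p = 0.00113) and 0.709 in mock cells (adjusted p = 0.00171).

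Of 24 listed regulators 23 were tested. Under DEM 3 rose and 1 fell in T-N2G cells (13.0% and 4.35% of the 23, against 10.1% and 7.55% of all genes), and 7 rose in mock cells (30.4%, against 7.76%) and 0 fell. With the block 8 rose and 4 fell in T-N2G cells (34.8% and 17.4%, against 22.8% and 22.2%), and 11 rose and 3 fell in mock cells (47.8% and 13.0%, against 20.9% and 21.9%). Shares near those of all genes say nothing particular about a list. The lists were chosen with earlier results of these data known, so larger shares are no test of a list either. In T-N2G over mock cells the calls under DEM were 2 higher and 3 lower (8.70% and 13.0%, against 2.61% and 1.11% of all genes). With the block they were 4 and 5 (17.4% and 21.7%, against 10.3% and 9.32%). In vehicle 2 were higher (8.70%, against 0.305%), and 3 with the block (13.0%, against 3.06%). Both times the 2 higher without the block were Nfe2l2 and Mafg, the parts of T-N2G. The 3 lower under DEM were Mycn, Nfe2l1 and Trib3. The calls of Mycn and Nfe2l1 held in 9 and 7 of the 12 fits that left out 1 library. Mycn also fell under DEM in T-N2G cells, a call that held in 8 of the 12 such fits (adjusted p up to 0.0801). Nfe2l1 rose under DEM in mock cells, which held in all 12. Trib3, a pseudokinase that restrains the integrated stress response, had a fold of 0.681 (adjusted p = 0.0346). That call was lost without each of 7 libraries (T-N2G DEM replicates 2 and 3, T-N2G vehicle replicate 1, mock DEM replicates 1, 2 and 3, mock vehicle replicate 3; adjusted p up to 0.148). Atf4 had 366, 324 and 333 CPM in T-N2G DEM, against 309, 285 and 306 in T-N2G vehicle, and 390, 337 and 371 in mock DEM, against 302, 248 and 268 in mock vehicle. The DEM libraries lay above the vehicle libraries of the same cells without overlap. For T-N2G cells the change of Atf4 was log2 0.18 ± 0.08 (adjusted p = 0.149), which the block called higher (adjusted p = 0.00138). In mock cells Atf4 rose 1.34-fold (log2 0.42 ± 0.08, adjusted p = 0.00746). The difference of both effects was -0.24 ± 0.12 (adjusted p = 1), which the block called lower (adjusted p = 0.0242). Leaving out any of 6 libraries ended that (T-N2G DEM replicate 3, T-N2G vehicle replicates 2 and 3, mock DEM replicate 3, mock vehicle replicates 2 and 3; adjusted p up to 0.0938). In vehicle, Atf4 had 285 to 309 CPM in T-N2G cells and 248 to 302 in mock cells. In T-N2G over mock cells it was called in 0 of 12 fits that left out 1 library, under DEM and in vehicle. With the block such fits called Atf4 higher in vehicle in 5 of 12 (adjusted p 0.0234 to 0.211), and in 0 of 12 under DEM. Over fits with other settings its log2 fold change in vehicle ran from 0.0725 to 0.217, and the lowest adjusted p was under 0.05.

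Atf5, Ddit3 and Trib3, genes of the same stress response, rose by larger folds than Atf4 had. Atf5, a related factor, rose 1.95-fold in T-N2G cells (adjusted p = 1.33e-04) and 2.24-fold in mock cells (adjusted p = 1.55e-04). Ddit3, which codes for the factor CHOP, rose 1.52-fold in T-N2G cells (adjusted p = 0.0158) and 2.21-fold in mock cells (adjusted p = 0.00118). Its T-N2G call was lost without T-N2G DEM replicate 3 or T-N2G vehicle replicate 1 or 2 (adjusted p up to 0.0658). Trib3 had 22.1, 20.9 and 16.6 CPM in T-N2G DEM, against 12.3, 13.5 and 9.69 in T-N2G vehicle, and 27.3, 27.8 and 32.4 in mock DEM, against 9.75, 9.44 and 9.62 in mock vehicle. All mock DEM libraries stood above all T-N2G DEM libraries. Trib3 rose 1.68-fold in T-N2G cells (adjusted p = 0.0036) and 3.04-fold in mock cells (adjusted p = 1.55e-04), and the difference was log2 -0.85 ± 0.19 (adjusted p = 0.123). The block called this difference lower (adjusted p = 0.00555), as did DESeq2 without it (0.00784).

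**Figure D5:**
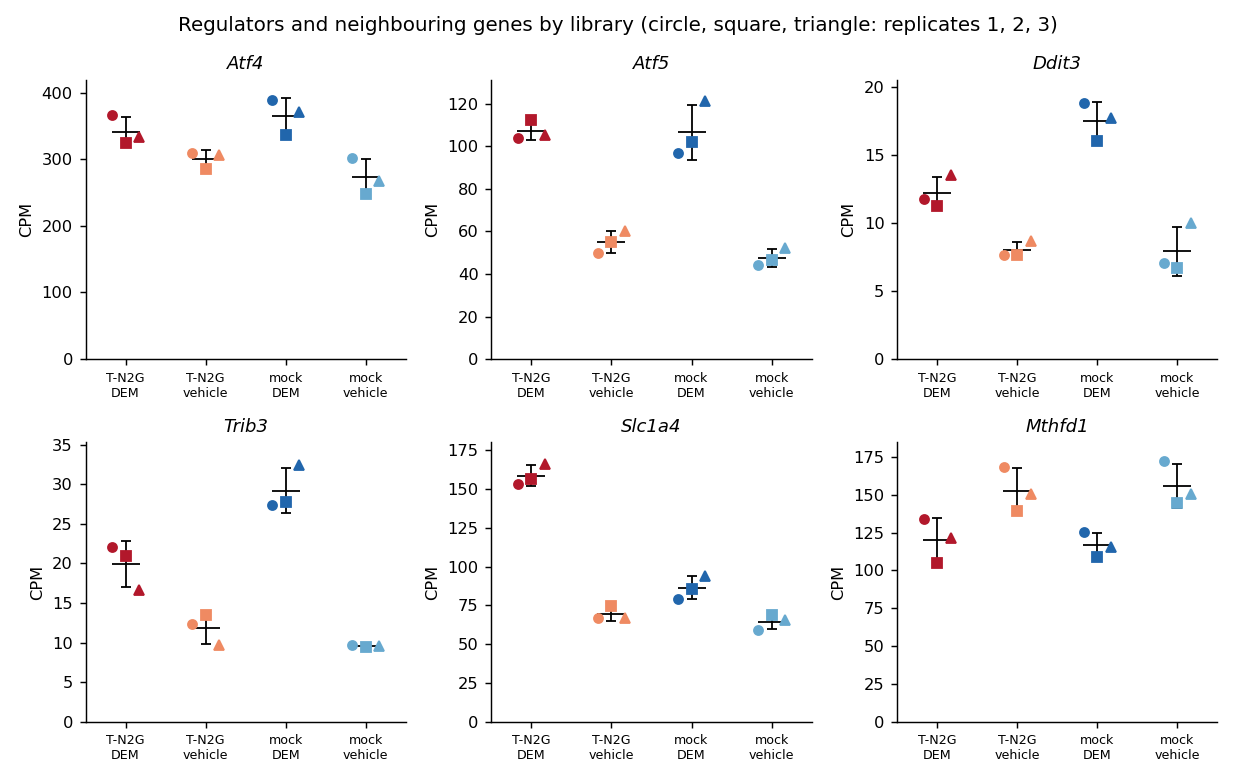
CPM by library in the 4 groups, with the mean and SD (bars) over 3 libraries, of the regulators Atf4, Atf5, Ddit3 and Trib3, the transporter Slc1a4 and the cytosolic folate enzyme Mthfd1. Slc1a4 is highest in T-N2G DEM (153 to 166 CPM), Ddit3 and Trib3 in mock DEM, and Mthfd1 is lower under DEM than in vehicle in both kinds of cell.

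The mean profile of the 10 genes, the mean of their centred log2 CPM, was highest in mock DEM replicate 3 (0.22) and lowest in T-N2G vehicle replicate 3 and mock vehicle replicate 2 (-0.13 each). Over the 12 libraries, which share these groups and replicate numbers, Mthfd2 was the member most like it (Pearson r = 0.94), followed by Asns (0.93), and Shmt2 the least (-0.16). Since the mean holds the members, their own values are raised by this. Among the genes that are no members, the 8 most like it were Gars (0.934), a glycyl-tRNA synthetase, Trib3 (0.933), Dedd (0.919), Prickle4 (0.909), Cyb5r1 (0.907), Maml1 (0.903), Uhrf1bp1 (0.903) and Rce1 (0.901). Of these, Prickle4 rested on only 9 to 29 fragments a library, near the filter on low counts. These correlations describe likeness over n = 12 libraries and carry no p.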

How the data were processed

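The authors deposited, for each of 12 libraries, an estimated count of fragments per gene, not normalized (raw fragments, per the file headers). They also deposited FPKM, in which fragments are divided by transcript length and library size. Per the submitters' processing notes, bcl2fastq 2.16.0.10, TopHat2 2.0.8b, Cuffdiff 2.1.1 and mm9 were used. The gene annotation and strand setting are not given in the sources used here. Aldh1l2, Psph, Shmt1 and Shmt2 overlap D10Wsu102e, Cct6a, Smcr8 and Ndufa4l2 on the other strand, Psat1 overlaps a pseudogene on the other strand and Phgdh has a pseudogene copy. Aldh18a1 and Mthfd2 overlap Gm15801, a pseudogene, and Gm43890 on their own strand, and Shmt1 also overlaps a snoRNA on the other strand. Shared reads make these levels uncertain. Rows were joined to samples by the key in the series' design text, and 0 values belonged to other samples.

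Counts (98.3% whole as deposited) were rounded. The tests used edgeR 4.0.16 under R 4.3.3, with filterByExpr on the 4 groups (minimum count 10, total 15), TMM, and 1 quasi-likelihood fit of all 12 libraries with 5 contrasts. SE is the log2 fold change divided by the root of F, and 95% intervals are approximate. With 3 libraries a group, single values rest on 272 to 12544 fragments per member and library. The code was tested on simulated data that held no effect of the replicate number, so this did not check the block on paired libraries. Alternatives were DESeq2 1.42.0, limma 3.58.1 on log2(FPKM + 1) and log2(FPKM + 0.1), other scalings, no filter, left-out libraries and the replicate block.

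Replicate numbers in the titles were checked first. Deviations from the group means in the 18 pairs of the same number correlated at r = 0.361 to 0.631, so the numbers pair the libraries. The 36 other pairs correlated at -0.422 to -0.00363, which is no separate evidence, since deviations within a group cancel out. In the labels' descriptions, library codes of replicate 3 run apart from those of 1 and 2.

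The members and lists were chosen with earlier results of these data known. The naming rule took all members, Atf4, Nfe2l2 and Mafg, up to 4 called genes per list and contrast by smallest adjusted p (1 or more of the rarer direction), and the 8 genes most like the mean profile. Not every gene it names is reported here. A named gene is also given in other contrasts. Ddx3y and the other Y-linked genes, the difference of Trib3 and both ratios were chosen after their values were seen.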

Additional observations from a re-analysis of the deposited data

Results flagged for a closer look

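In edgeR without the replicate block, Slc1a4 was the 1 gene among the 10 members and the listed neighbours whose response to DEM passed the test of the difference between T-N2G and mock cells. With the block it also passed (adjusted p = 5.46e-06), as did Trib3 (adjusted p = 0.00555) and Atf4 (adjusted p = 0.0242) in the lower direction, and DESeq2 without the block called Trib3 too (adjusted p = 0.00784). The log2 fold change of Slc1a4 was larger by 0.77 ± 0.11 in T-N2G than in mock cells (n = 3 libraries a group, edgeR adjusted p = 0.011), and larger in all 3 pairs of the same number. Without the block the Slc1a4 call held without any 1 of the 12 libraries (adjusted p 0.0118 to 0.046) and was lost with replicates 1 and 2 only (0.76, adjusted p = 0.307).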

How the results depend on the processing

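With the replicate block, and with DESeq2 and the block, 3 members were lower in T-N2G over mock cells under DEM, against 0 without it. Over all 12469 genes these fits called 1162 and 862 lower, against 138 in edgeR without the block. For DEM over vehicle in T-N2G cells, members called higher were 3 with the block, 2 with DESeq2 and the block, 4 with replicates 1 and 2 only and the block, and 0 with DESeq2 size factors, without the filter, with limma on log2(FPKM + 1) or log2(FPKM + 0.1), and with replicates 1 and 2 only, against 1. Members called lower there were 2 with the block, 2 with DESeq2 and the block, and 3 with replicates 1 and 2 only and the block, against 0. Over all genes, T-N2G cells had 2846 higher and 2769 lower with the block, and 2317 and 2222 with DESeq2 and the block. With replicates 1 and 2 only and the block they had 2382 and 2258, against 1254 and 941. The settings with 0 members higher called 1211, 1015, 1231, 1218 and 305 genes higher, in the order given. These fits tested 12469 genes, except 17650 without the filter and 12525 with replicates 1 and 2 only. In mock cells replicates 1 and 2 only gave 0 higher, against 4, and with the block 1 lower, against 0. DESeq2 with the block gave 1 lower for the difference, where it called 118 of all genes lower, against 2 in edgeR without the block. With replicates 1 and 2 only, 57 of all genes were higher in mock cells, against 967, and with the block 2223 were lower, against 770. In that smaller set signs turned for small values, Psph in T-N2G over mock under DEM (0.00487, or 0.0055 with the block), and under DEM in mock cells Psat1 (-0.0112, or -0.00717) and Shmt1 (-0.0156, or -0.0095). The cause was not tested.

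Without each library in turn, with and without the block, members called lower ranged from 0 to 1 for T-N2G over mock in vehicle and for DEM in mock cells, 0 to 5 for T-N2G over mock under DEM, 0 to 3 for DEM in T-N2G cells and 0 to 2 for the difference. In that order all genes called lower ranged from 0 to 459, 380 to 2872, 63 to 1242, 568 to 2902 and 1 to 129. Members called higher for DEM in T-N2G cells ranged from 0 to 5, and all genes called higher from 756 to 2820. The upper ends over all genes came from fits with the block. Uncalled log2 fold changes that crossed 0 were, for T-N2G over mock in vehicle, Phgdh (-0.0205 to 0.15), Psat1 (-0.0265 to 0.12), Shmt2 (-0.0429 to 0.10), Pycr1 (-0.15 to 0.21) and Aldh18a1 (-0.0148 to 0.12). Under DEM they were Phgdh (-0.0519 to 0.14), Psat1 (-0.18 to 0.00216), Shmt1 (-0.15 to 0.0258) and Shmt2 (-0.14 to 0.0297). For DEM in mock cells they were Phgdh (-0.0086 to 0.19), Psat1 (-0.0486 to 0.13), Shmt1 (-0.0493 to 0.12) and Aldh18a1 (-0.011 to 0.12). For Phgdh they also did so in T-N2G cells (-0.0164 to 0.12) and in the difference (-0.14 to 0.0612).

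The calls of Psph, Mthfd2 and Asns in mock cells held without any 1 of the 12 libraries. Over all genes, DEM in T-N2G cells gave 2846 higher and 2769 lower with the block, against 1254 and 941 without it. In mock cells it gave 2603 and 2736 with the block and 57 and 67 with replicates 1 and 2 only, against 967 and 770. T-N2G over mock had 1283 and 1162 under DEM, against 325 and 138, and 381 and 404 in vehicle, against 38 and 1. The block changed no call of a member besides those named. Without each library in turn, calls among the 44 serine and folate genes under DEM were 1 to 3 higher and 0 to 2 lower in T-N2G cells, and 2 to 5 and 0 to 2 in mock cells. Among the 30 proline and asparagine genes they were 2 to 3 and 3 to 5, and 2 to 6 and 2 to 3, and among the regulators 2 to 4 and 0 to 1, and 5 to 7 and 0. Over all genes, such fits without the block called 756 to 1200 higher and 568 to 966 lower in T-N2G cells. In mock cells they called 521 to 1016 higher and 380 to 770 lower. Leave-one-out fits with the block and fits of neighbours were added after the data were seen.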
